A study of Mus musculus with 42 samples.

Results

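The Slc25 genes encode the mitochondrial carriers, the large family of small proteins that move metabolites across the inner mitochondrial membrane. The family members described here are the genes whose symbol is Slc25a followed by a number, and 47 of the 55401 genes in every library met that rule. All 47 gene IDs matched the GENCODE M21 mouse annotation on GRCm38. Family members with other names, the uncoupling proteins Ucp1 to Ucp3 and the outer membrane proteins Mtch1 and Mtch2, were kept apart as a comparison list.

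Most carriers exchange one substrate in the matrix for another in the cytosol, and so couple pathways on both sides of the membrane. ADP/ATP carriers bring in ADP and release ATP, the phosphate carrier supplies phosphate for ATP synthesis, and other members carry citrate, keto acids, amino acids, carnitine esters, nucleotides, cofactors, iron and glutathione. Some members lie in other membranes, such as Slc25a46 in the outer mitochondrial membrane and Slc25a17 in peroxisomes.

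The study treated 7 mouse cancer cell lines for 6 h with 10 µM RECTAS in 0.1% DMSO, or with 0.1% DMSO alone, and sequenced polyadenylated RNA. RECTAS is a compound that modulates pre-mRNA splicing. The lines, as labelled, are B16 (melanoma), CT26 (colorectal adenocarcinoma), EG7 (lymphoma), LLC (lung carcinoma), MC38 (colorectal carcinoma), Pan02 (pancreatic adenocarcinoma) and WEHI3 (leukemia). There were 3 libraries for each line and treatment, giving 14 groups and 42 libraries. EG7 is known as a line that carries an introduced ovalbumin gene. CT26 and MC38 were grown in RPMI medium and the other lines in DMEM, with 2-mercaptoethanol added for WEHI3, so medium and line cannot be told apart. Whether replicate libraries represent separate cultures is not stated, and the p-values therefore reflect only the spread among the libraries sequenced, which may be technical.

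The unit was TPM, a relative transcript abundance that allows for gene length, so levels of different genes can be set side by side. Depth was unknown. The number of genes at 1 TPM or more was 11001 to 12205 per library, and replicates of a group correlated across genes with r of 0.984 to 0.991. Marker genes were checked against the labelled origins. All 6 melanocyte markers reached 1 TPM in B16, 5 of 6 T lymphoid markers did so in EG7 and 5 of 6 myelomonocytic markers did so in WEHI3. WEHI3 also had 2 of 6 T lymphoid markers at that level, summing to 2199.98 TPM against 1473.9 TPM in EG7, nearly all of it Thy1 at 2179 TPM; Cd3e and Cd3g were listed at 0 there. Of 6 epithelial markers, 4 reached 1 TPM in Pan02 and 2 in LLC, but 0 in CT26 and 0 in MC38, where defining markers of the labelled epithelial origin were therefore missing.

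With DMSO, 4 carriers made up most of the family's RNA in every line: the ADP/ATP carriers Slc25a5 and Slc25a4, the phosphate carrier Slc25a3 and the glutathione carrier Slc25a39. Together they took from 63.96% of the summed family TPM in Pan02 to 78.23% in B16. The summed family level was 3659 ± 92.35 TPM (SD, n = 3) in B16, the highest, and 2678 ± 26.66 TPM in Pan02, the lowest. With RECTAS the sum ran from 2638 ± 42.33 TPM in Pan02 to 3782 ± 50.12 TPM in B16, and this sum was not tested. The libraries were made from bulk cells, so RNA in fewer cells and less RNA per cell cannot be told apart.

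Of the 47 members, 31 reached a mean of 1 TPM in all 7 lines with DMSO. Slc25a13, Slc25a24, Slc25a35, Slc25a42 and Slc25a45 did so in 6 lines, Slc25a29 and Slc25a43 in 5, and Slc25a27, a relative of the uncoupling proteins, in 3. Slc25a21 reached it in LLC alone, Slc25a34 in B16 alone and Slc25a48 in Pan02 alone. Another 5 members reached it in no line: Slc25a2 and Slc25a18, carriers of ornithine and of glutamate, Slc25a31, an ADP/ATP carrier known from germ cells, Slc25a41 and Slc25a54. By line, the number of members at 1 TPM or more ran from 33 in EG7 to 40 in B16 and in LLC.

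**Figure D1:**
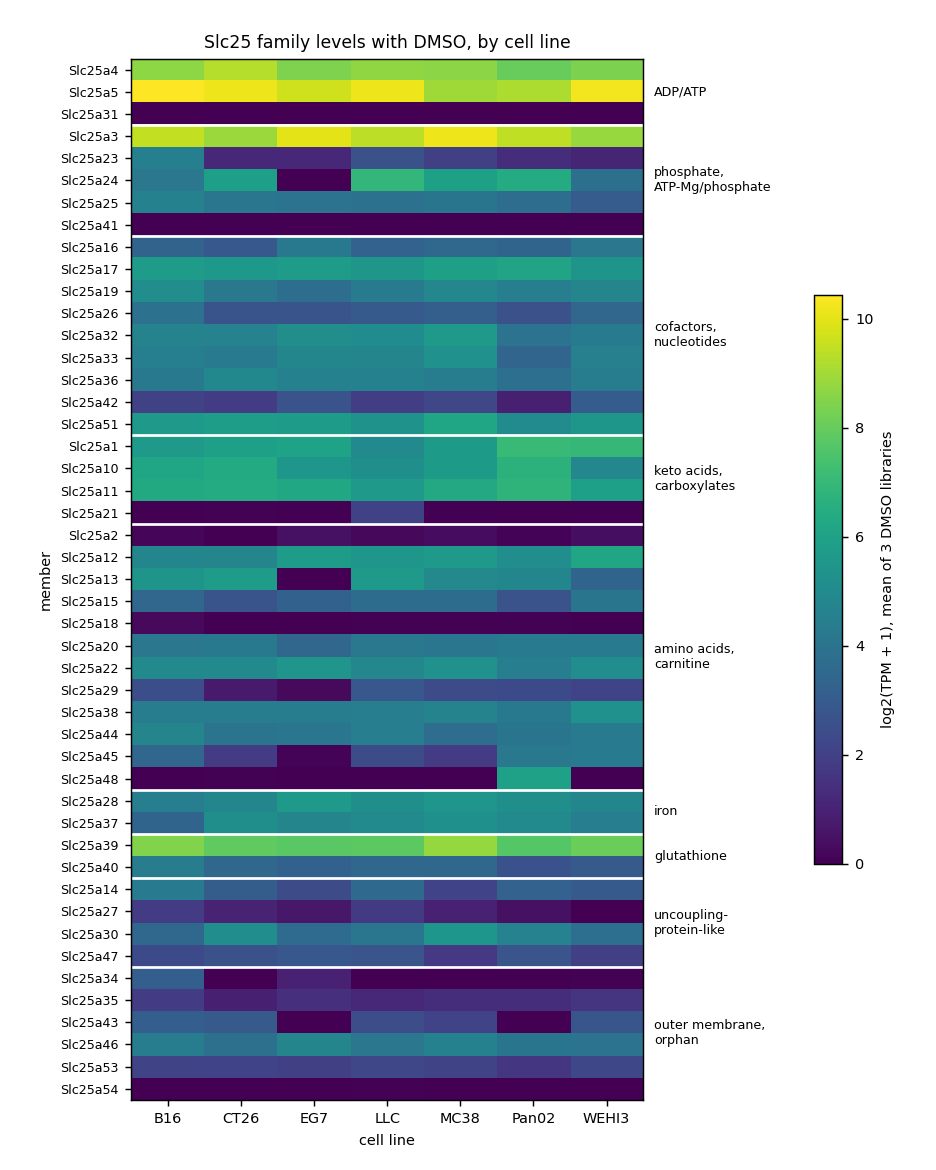
Mean log2(TPM + 1) over the 3 DMSO libraries of each cell line (columns) for all 47 members (rows), grouped by what they carry. Bright rows are Slc25a5, Slc25a3, Slc25a4 and Slc25a39 in every line; dark cells in otherwise lighter rows mark carriers near 0 in some lines, such as Slc25a24 and Slc25a13 in EG7.

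The abundant carriers ranked differently from line to line. Slc25a5, the ADP/ATP carrier of dividing cells, had a mean of 970.4 TPM over the lines, from 500.6 ± 15.9 TPM in MC38 to 1387 ± 41.6 TPM in B16. Slc25a3 averaged 741.7 TPM and ran the other way between those lines, with 1147 ± 21.5 TPM in MC38 and 722.8 ± 21.5 TPM in B16, and its lowest mean was 447.9 TPM in WEHI3. Slc25a4, the ADP/ATP carrier known from heart and muscle, averaged 394.1 TPM and was highest in CT26 at 627.1 ± 6.40 TPM. In MC38, EG7 and Pan02 the most abundant member was Slc25a3, and in the other 4 lines it was Slc25a5. Slc25a5 shares sequence with other genes: 33.76% of its 50-base transcript windows occur elsewhere in the annotation, chiefly in the pseudogenes Gm5560 and Gm5529, listed at no more than 1.95 and 1.08 TPM in any library. How reads were shared between these copies is not known, so the level of Slc25a5 is uncertain to that degree.

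The next most abundant members carry carboxylates. Slc25a11, the oxoglutarate carrier of the malate-aspartate shuttle, averaged 76.53 TPM, Slc25a1, the citrate carrier that feeds cytosolic lipid synthesis, 72.63 TPM, and Slc25a10, the dicarboxylate carrier, 58.79 TPM. All 3 were highest in Pan02, at 109.1 ± 1.18, 132.1 ± 1.88 and 102.9 ± 5.22 TPM. For Slc25a1 the difference between Pan02 and the next line, WEHI3 at 122.6 ± 2.82 TPM, was not called (log2 difference 0.11, limma, adjusted p = 0.111), whereas Slc25a11 and Slc25a10 differed between Pan02 and CT26, the next line (adjusted p = 3.17e-09 and 3.76e-05, in a contrast that called 74.1% of all genes). LLC was lowest for Slc25a1, at 29.62 ± 2.75 TPM. The peroxisomal carrier Slc25a17 averaged 52.1 TPM and ran from 41.5 TPM in WEHI3 to 66.74 TPM in Pan02, a log2 range of 0.67. Slc25a51, the NAD+ carrier, averaged 49.11 TPM, Slc25a12, the aspartate/glutamate carrier also called aralar, 43.2 TPM, and Slc25a28, the iron carrier mitoferrin 2, 33.8 TPM.

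The DMSO levels differed between the lines for all 41 members that could be tested, those whose mean over the 21 DMSO libraries reached 1 TPM (limma F-test, adjusted p under 0.05). That share was close to the 98.1% called among all 13525 genes tested, so a difference between lines was the rule for genes in general. The range between the highest and lowest line had a median of 1.40 on the log2(TPM + 1) scale, and it was 1 or more for 35 of the 41 members. B16 was the highest line for 12 of the 41 members, MC38 and WEHI3 for 7 each, and LLC for 2. Pan02 was the lowest line for 14. The highest line was called apart from the next line for only 29 of the 41 members, so the other first places are not settled. These counts of highest and lowest lines were not compared with those of all genes.

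Several carriers were present in most lines and at or near 0 in others, and the same lines were at or near 0 with either treatment. Slc25a24, a calcium-regulated ATP-Mg/phosphate carrier, stood at 125, 113.9 and 123.4 TPM in the 3 DMSO libraries of LLC and at 0, 0.02 and 0.01 TPM in those of EG7. Slc25a13, the aspartate/glutamate carrier also called citrin, stood at 55.71, 51.9 and 54.85 TPM in CT26 and was listed at 0 in all 6 libraries of EG7. Its paralog Slc25a12 was at 53.72, 54.49 and 51.33 TPM in the DMSO libraries of EG7. EG7 thus lay apart from the other 6 lines for both Slc25a24 and Slc25a13, with no overlap. Slc25a48, reported as a choline carrier, showed the opposite layout: 63.15, 60.5 and 60.89 TPM in Pan02 and at most 0.06 TPM in any DMSO library of another line.

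The 250 bases before the RefSeq start of these 3 genes (RefSeq table, GRCm38.p6) are given because their RNA was listed at or near 0 in at least 1 line; the files hold no measurement of the promoters themselves. Capitals mark CG pairs, the sites of DNA methylation, which read the same on both strands. The windows hold 11, 14 and 10 CG pairs, against a median of 6 over the 32851 promoters of the table, and 35.6%, 29.4% and 37.8% of those promoters hold as many or more. They are chr6:6217174-6217423 on the minus strand, chr3:109122899-109123148 on the plus strand and chr13:56438105-56438354 on the plus strand.
Slc25a13: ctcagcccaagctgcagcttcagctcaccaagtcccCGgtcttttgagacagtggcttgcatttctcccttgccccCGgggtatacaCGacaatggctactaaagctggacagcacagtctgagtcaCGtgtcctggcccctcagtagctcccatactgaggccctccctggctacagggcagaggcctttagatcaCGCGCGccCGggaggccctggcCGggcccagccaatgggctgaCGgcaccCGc
Slc25a24: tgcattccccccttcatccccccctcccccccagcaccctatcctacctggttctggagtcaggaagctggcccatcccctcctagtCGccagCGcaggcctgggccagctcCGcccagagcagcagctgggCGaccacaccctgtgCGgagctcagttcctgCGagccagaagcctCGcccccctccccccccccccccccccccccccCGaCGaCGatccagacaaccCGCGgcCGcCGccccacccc
Slc25a48: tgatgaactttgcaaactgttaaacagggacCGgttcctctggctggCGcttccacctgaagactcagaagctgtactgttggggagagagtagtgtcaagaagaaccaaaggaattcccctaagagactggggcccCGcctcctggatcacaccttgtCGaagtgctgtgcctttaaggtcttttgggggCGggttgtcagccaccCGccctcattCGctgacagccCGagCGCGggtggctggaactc

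Other members varied in a similar way at lower levels. Slc25a45, an amino acid carrier-like member, ran from 19.08 ± 0.547 TPM in WEHI3 to 0.06 ± 0.0173 TPM in EG7, and WEHI3 was not called apart from Pan02 at 17.23 ± 1.13 TPM (adjusted p = 0.243). Slc25a43, a member without a settled substrate, was listed at 0 in the DMSO libraries of EG7 and Pan02 and stood at 7.70 ± 0.401 TPM in B16. Slc25a29, a carrier of basic amino acids, was low in CT26 (0.68 TPM) and EG7 (0.2033 TPM) and highest in LLC at 6.07 ± 0.236 TPM. Several others were highest in B16. Slc25a23, another ATP-Mg/phosphate carrier, was at 21.47 ± 2.06 TPM there and at 5.05 ± 0.477 TPM in LLC, the next line. Slc25a34 was at 7.597 ± 0.333 TPM in B16 and at 0.9333 ± 0.0416 TPM in EG7, and Slc25a14, a relative of the uncoupling proteins, at 18.43 ± 1.90 TPM in B16 and 10.87 ± 0.152 TPM in LLC. For these 3 genes B16 was called above the next line (adjusted p = 4.95e-10, 7.73e-20 and 2.83e-06), in contrasts where 76.6% of all genes were called between B16 and LLC and 79.1% between B16 and EG7. Slc25a42, a coenzyme A carrier, ran from 7.193 ± 0.589 TPM in WEHI3 to 0.88 ± 0.164 TPM in Pan02.

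**Figure D2:**
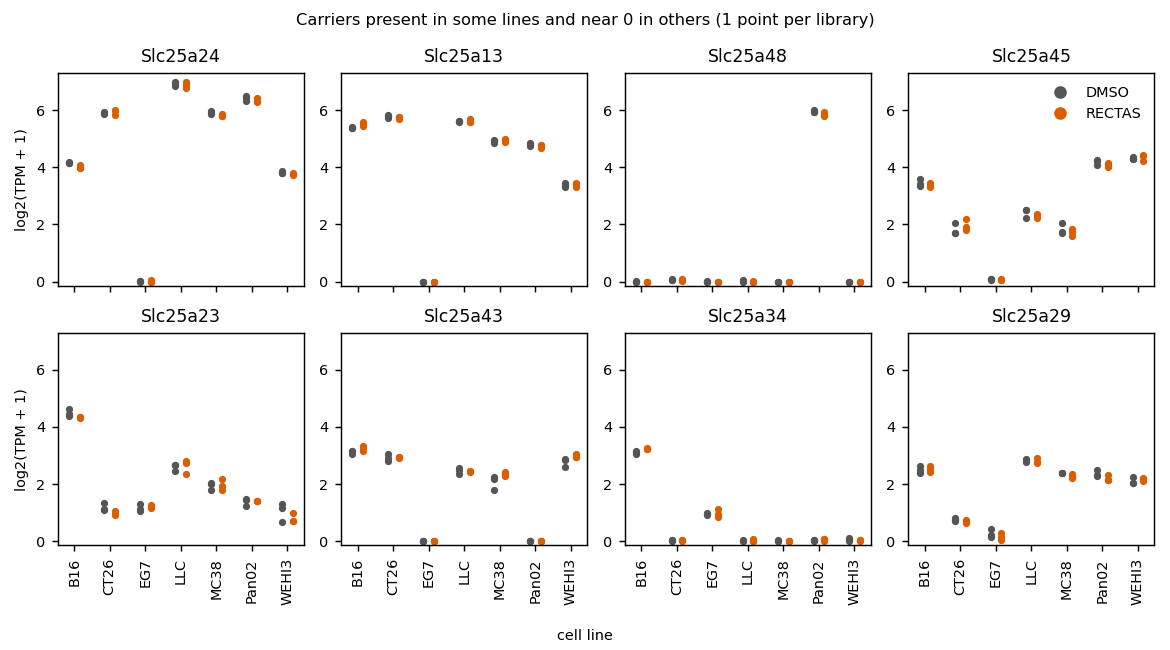
log2(TPM + 1) of 8 carriers in each of the 42 libraries, by cell line, with DMSO in grey and RECTAS in orange. Slc25a48 is above 0 in Pan02 and near 0 elsewhere, and Slc25a24 and Slc25a13 are near 0 in EG7, with both treatments alike.

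The glutathione carriers Slc25a39 and Slc25a40 are paralogs that are known to import glutathione, the main soluble thiol of the cell, into mitochondria. Slc25a40 (chromosome 5, 8422850 to 8454797, plus strand) was the less abundant of the pair in every line, at 2.43% (MC38) to 5.69% (B16) of the TPM of Slc25a39 with DMSO. Its DMSO level was 20.08 ± 0.878 TPM in B16, called above CT26 at 10.66 ± 0.358 TPM (adjusted p = 1.52e-07, in a contrast where 80% of all genes were called). CT26 was not called apart from MC38 at 10.59 ± 0.496 TPM, nor MC38 from LLC at 10.23 ± 1.81 TPM (adjusted p = 0.953 and 0.601). EG7 at 8.51 ± 0.355, WEHI3 at 6.86 ± 0.612 and Pan02 at 5.203 ± 0.467 TPM followed. Slc25a39 (chromosome 11, 102402985 to 102407946, minus strand) was highest in MC38 at 436.7 ± 17.3 TPM, then B16 at 352.8 ± 11.5 TPM, and lowest in Pan02 at 202.7 ± 12.7 TPM, where it was not called apart from EG7 (adjusted p = 0.117).

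After RECTAS, Slc25a40 was lower than with DMSO in every line. In B16 its level was 19.08, 20.71 and 20.46 TPM with DMSO and 10.83, 8.48 and 8.53 TPM with RECTAS. In LLC it was 11.07, 8.16 and 11.47 TPM with DMSO and 4.69, 4.63 and 6.48 TPM with RECTAS. In MC38 it was 10.08, 10.62 and 11.07 TPM with DMSO and 5.42, 6.39 and 6.23 TPM with RECTAS. The RECTAS libraries of these 3 lines lay below the DMSO libraries without overlap. In Pan02 the values were 4.89, 5.74 and 4.98 TPM with DMSO and 3, 2.44 and 3.3 TPM with RECTAS. In EG7 they were 8.30, 8.92 and 8.31 TPM with DMSO and 5.51, 5.72 and 6.03 TPM with RECTAS. The groups were again apart. In CT26 the values were 11.07, 10.46 and 10.44 TPM with DMSO and 10.19, 7 and 7.49 TPM with RECTAS, where the first RECTAS library lay just below the DMSO range. In WEHI3 they were 7.50, 6.80 and 6.28 TPM with DMSO and 5.93, 5.06 and 6.15 TPM with RECTAS, the narrowest gap of the 7 lines. All RECTAS libraries of a line thus lay below all its DMSO libraries in 7 of 7 lines. Among the 8775 genes tested in every line, 1.15% had this layout, and none of the other 30 members tested did so in more than 3 lines.

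**Figure D3:**
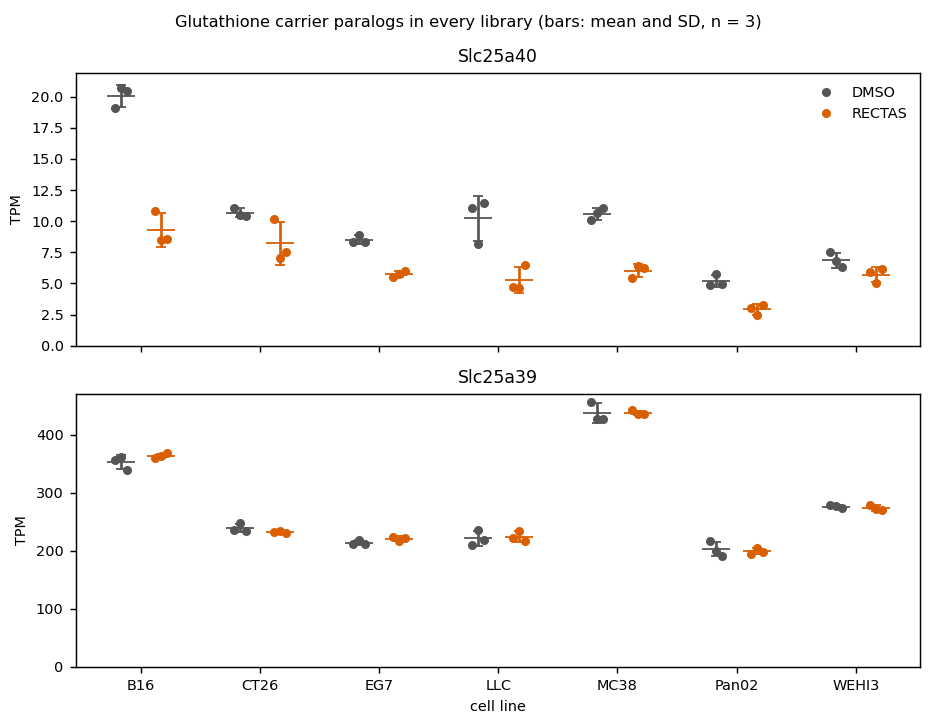
TPM of Slc25a40 (top) and Slc25a39 (bottom) in each library, by cell line, with DMSO in grey and RECTAS in orange; bars give the mean and SD of 3 libraries. The RECTAS points of Slc25a40 lie below the DMSO points in all 7 lines, while those of Slc25a39 overlap the DMSO points in 6 of the 7 lines.

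On average over the lines Slc25a40 fell from 10.31 to 6.167 TPM, a log2 difference of -0.62 with an SE of 0.045 (limma, adjusted p = 6.22e-13, lower in 7 of 7 lines). The mean with RECTAS was 46.2% of that with DMSO in B16, 51.5% in LLC, 56.0% in Pan02, 56.8% in MC38, 67.6% in EG7, 77.2% in CT26 and 83.3% in WEHI3. Slc25a39 stood at 277.5 TPM with DMSO and 278.7 TPM with RECTAS, a log2 difference of 0.004 with an SE of 0.014 that was not called (adjusted p = 0.87). GENCODE lists 8 transcripts of Slc25a40, of which 3 are coding, 1 is marked for nonsense-mediated decay and 4 retain an intron. The deposited values are totals per gene and do not show which of these transcripts changed. Of its 50-base windows, 3.27% occur in the pseudogene Gm5066, which was listed at no more than 0.37 TPM in any library.

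Slc25a40 lies head to head with Dbf4, which encodes the activator of the replication kinase CDC7, and their annotated starts are 134 bases apart on opposite strands. Averaged over the lines, Dbf4 was measured at 82.52 TPM with DMSO and 80.22 TPM with RECTAS. The log2 difference of -0.024 with an SE of 0.028 was not called (limma, adjusted p = 0.591, lower in 4 of 7 lines). Single lines went both ways. In B16, Dbf4 was 123.11, 124.01 and 133.13 TPM with DMSO and 117.89, 107.38 and 107.74 TPM with RECTAS, without overlap. The median log2 difference of all genes tested in B16 was -0.064. In Pan02, Dbf4 was 49.32, 55.23 and 52.19 TPM with DMSO and 55.23, 57.01 and 57.9 TPM with RECTAS. A stretch between these genes, chr5:8422717-8422837 in GRCm38.p6 on the strand of Slc25a40, is given because it separates the pair. It runs from the GENCODE start of Dbf4 to the RefSeq start of Slc25a40, which lies 12 bases before the GENCODE start of that gene. It holds 22 CG pairs, in capitals, in 121 bases, and 1.4% of promoter windows of that length in the RefSeq table hold as many or more, with a median of 3.
Slc25a40 to Dbf4: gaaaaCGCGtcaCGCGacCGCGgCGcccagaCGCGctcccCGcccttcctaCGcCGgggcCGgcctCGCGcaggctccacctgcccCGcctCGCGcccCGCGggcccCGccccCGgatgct

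Across the family the average response was small. Of the 31 members whose mean over both treatments reached 1 TPM in every line, 3 rose and 7 fell, against 9.86% of all 8775 genes called higher, 15.9% called lower and 25.8% called in either direction. These 31 hold Slc25a42 and not Slc25a23, the reverse of the 31 that reached 1 TPM in every line with DMSO. The share of members was 9.68% higher and 22.6% lower, with a median log2 difference of -0.015, beside -0.003 over all genes tested. Apart from Slc25a40, no called difference was larger than 0.145 on the log2 scale. The 21 members that were not called lay between -0.10 and 0.10. The other 16 members did not reach the level needed in every line: 11 of them were tested only in single lines, and the 5 that reached it in no line were not tested.

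The aspartate/glutamate carrier Slc25a12 rose. Its level went from 43.2 to 46.07 TPM on average, a log2 difference of 0.10 with an SE of 0.018 (adjusted p = 5.76e-05), higher in 7 of 7 lines. In CT26 it was 23.64, 27.26 and 26.7 TPM with DMSO and 30.99, 28.4 and 29.2 TPM with RECTAS. In WEHI3 it was 70.74, 71.23 and 67.91 TPM with DMSO and 72.4, 72.09 and 74.2 TPM with RECTAS. The groups did not overlap in these lines, EG7 and LLC, and they overlapped in B16, MC38 and Pan02. How many of all genes were apart in as many lines was not counted, here or for the members below. Slc25a13, its paralog, could not be tested on average because it was listed at 0 in EG7.

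Of the 9 carriers of cofactors and nucleotides, all tested, 2 rose and 1 fell, beside 9.86% and 15.9% of all genes. Slc25a33, a pyrimidine nucleotide carrier, rose from 23.43 to 24.69 TPM, a log2 difference of 0.068 with an SE of 0.017 (adjusted p = 0.00209), higher in 6 of 7 lines and lower in CT26. In LLC it was 26.53, 26.95 and 25.1 TPM with DMSO and 28.9, 30.49 and 27.55 TPM with RECTAS, and the groups did not overlap there or in B16, MC38 and WEHI3. Slc25a26, the carrier of the methyl donor S-adenosylmethionine, rose from 7.828 to 8.451 TPM, by 0.09 on the log2 scale with an SE of 0.026 (adjusted p = 0.00809), higher in 5 of 7 lines. In Pan02, where its difference was widest, it was 5.34, 4.64 and 4.95 TPM with DMSO and 6.15, 5.82 and 6.51 TPM with RECTAS. Without Pan02 the difference was 0.061 and was no longer called (adjusted p = 0.121). All RECTAS libraries of Slc25a26 lay above all DMSO libraries in 2 lines, Pan02 and WEHI3, and below them in 1, LLC. In LLC it was 6.67, 6.8 and 6.77 TPM with DMSO and 6.23, 6.09 and 6.57 TPM with RECTAS. An exon of Slc25a26 overlaps Lrig1 on the other strand, and 1 of Slc25a33 overlaps Gm13068, so both levels are uncertain. The peroxisomal carrier Slc25a17 fell by 0.047, from 52.1 to 50.51 TPM (SE 0.013, adjusted p = 0.00687, lower in 7 of 7 lines). It was not called without LLC (difference -0.033, adjusted p = 0.0816).

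Among the carboxylate, ADP/ATP and phosphate carriers, Slc25a11 and Slc25a4 were called lower. Slc25a11, the oxoglutarate carrier, fell by 0.059 with an SE of 0.012, from 76.53 to 73.39 TPM (adjusted p = 0.000269, lower in 7 of 7 lines). In Pan02 it was 108.4, 108.3 and 110.4 TPM with DMSO and 103.9, 104.1 and 104.5 TPM with RECTAS, and the groups overlapped in B16, EG7, LLC and WEHI3. The ADP/ATP carrier Slc25a4 fell by 0.033 with an SE of 0.0094, from 394.1 to 383.8 TPM (adjusted p = 0.00721, lower in 6 of 7 lines), and without CT26 it was not called (-0.029, adjusted p = 0.0519). Slc25a5 had a difference of -0.024 (adjusted p = 0.174) and Slc25a3 of 0.024 (adjusted p = 0.0619), and neither was called. With libraries rescaled by median-ratio size factors, which moved the median of all genes from -0.003 to 0.005, Slc25a11, Slc25a17 and Slc25a4 were no longer called (adjusted p = 0.0539, 0.061 and 0.202). An exon of Slc25a11 overlaps Rnf167 on the other strand.

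The glutamate carrier Slc25a22 fell by 0.10 with an SE of 0.033, from 31.86 to 29.71 TPM (adjusted p = 0.0237, lower in 6 of 7 lines). Its libraries overlapped between treatments in every line but B16, where it was 28.54, 32.04 and 29.09 TPM with DMSO and 26.45, 24.55 and 26.54 TPM with RECTAS. It was not called without B16, CT26 or LLC (-0.083, -0.083 and -0.084; adjusted p = 0.102, 0.0704 and 0.0638), nor with no filter on low genes (adjusted p = 0.0617). Of the pair of iron carriers, mitoferrin 2 (Slc25a28) fell by 0.076 with an SE of 0.020, from 33.8 to 31.96 TPM (adjusted p = 0.00384, lower in 6 of 7 lines). Mitoferrin 1 (Slc25a37) had a difference of -0.042 that was not called (adjusted p = 0.39). In WEHI3, Slc25a28 was 27.57, 25.82 and 26.18 TPM with DMSO and 23.93, 23.21 and 23.65 TPM with RECTAS, and in the other 6 lines the groups overlapped.

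Slc25a47, a member known from liver, fell by 0.145 with an SE of 0.041, from 4.55 to 4.009 TPM (adjusted p = 0.00742, lower in 6 of 7 lines). In LLC it was 5.21, 6.15 and 5.79 TPM with DMSO and 4.75, 4.61 and 4.24 TPM with RECTAS, and in MC38 the mean was 2.367 TPM with DMSO and 2.353 TPM with RECTAS. Lines were counted on log2(TPM + 1), where MC38 differed by 0.001 and so was the line not lower. The groups were apart in LLC and WEHI3 and overlapped in the other 5 lines. Slc25a47 and Slc25a29 lie head to head with starts 163 bases apart in GENCODE. In the RefSeq table Slc25a47 starts further downstream, after base 108851128 of chromosome 12, against 108836046 in GENCODE. The microRNA gene Mir345 overlaps an exon of Slc25a47 on the same strand, so its level is uncertain.

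**Figure D4:**
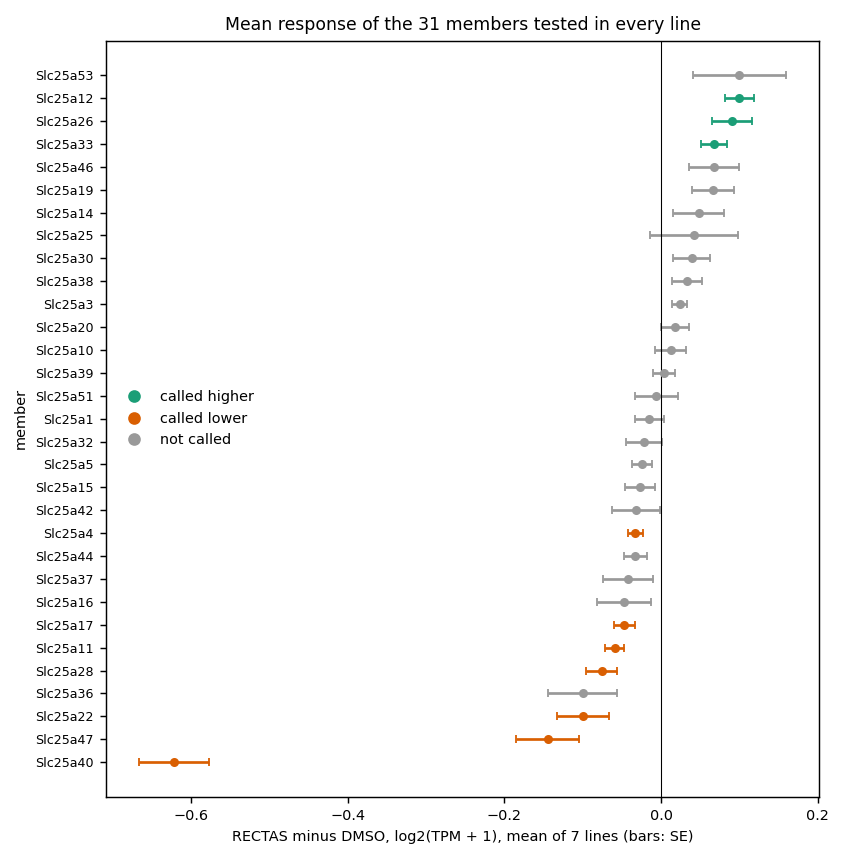
Mean over the 7 lines of RECTAS minus DMSO on log2(TPM + 1), with SE bars, for the 31 members tested in every line. Slc25a40 stands at -0.62 and all others lie between -0.145 and 0.10; green marks the 3 members called higher, orange the 7 called lower and grey the 21 not called.

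In single lines Slc25a40 was the only member called, and it was called in 4 of the 7, with a lower level after RECTAS in each. The log2 difference was -1.04 in B16 (SE 0.095, adjusted p = 0.0066), -0.49 in EG7 (SE 0.058, adjusted p = 0.00703), -0.73 in MC38 (SE 0.072, adjusted p = 0.00946) and -0.67 in Pan02 (SE 0.11, adjusted p = 0.0345). Among all genes tested, 4.1% were called in B16, 3.28% in EG7, 1.29% in MC38 and 1.68% in Pan02. In the other 3 lines 0 members were called, against 1.99% of all genes in CT26, 0.194% in LLC and 2.08% in WEHI3. Slc25a40 differed there by -0.35 in CT26 (SE 0.12, adjusted p = 0.173), -0.84 in LLC (SE 0.16, adjusted p = 0.199) and -0.23 in WEHI3 (SE 0.091, adjusted p = 0.272).

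The calls in Pan02 and MC38, and the lack of a call in CT26, turned on single libraries. In Pan02 the call was lost without any 1 of the 6 libraries, with adjusted p from 0.0562 without the third RECTAS library to 0.128 without the second DMSO library, and differences from -0.74 to -0.58. In MC38 it was lost without the third DMSO library (-0.70, adjusted p = 0.0588). In CT26, Slc25a40 was called without the first RECTAS library (-0.50, adjusted p = 0.0457). With the replicate number as a block it was not called in MC38 or Pan02 (adjusted p = 0.0617 and 0.107), and with no filter on low genes not in Pan02 (adjusted p = 0.137).

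For the other members, 256 tests in single lines gave 0 calls. The smallest adjusted p was 0.0554, for Slc25a37 in B16, which was 8.84, 9.69 and 9.4 TPM with DMSO and 7.59, 6.63 and 7.45 TPM with RECTAS, a log2 difference of -0.33. Its groups did not overlap. In B16 the median log2 difference was -0.064 over all genes tested and -0.01 over the members tested. Without the first RECTAS library of B16, Slc25a37 was called. Carriers found in few lines were tested only where they were present: Slc25a48 was not called in Pan02, Slc25a34 not in B16, and Slc25a24 and Slc25a13 in none of their 6 lines.

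**Figure D5:**
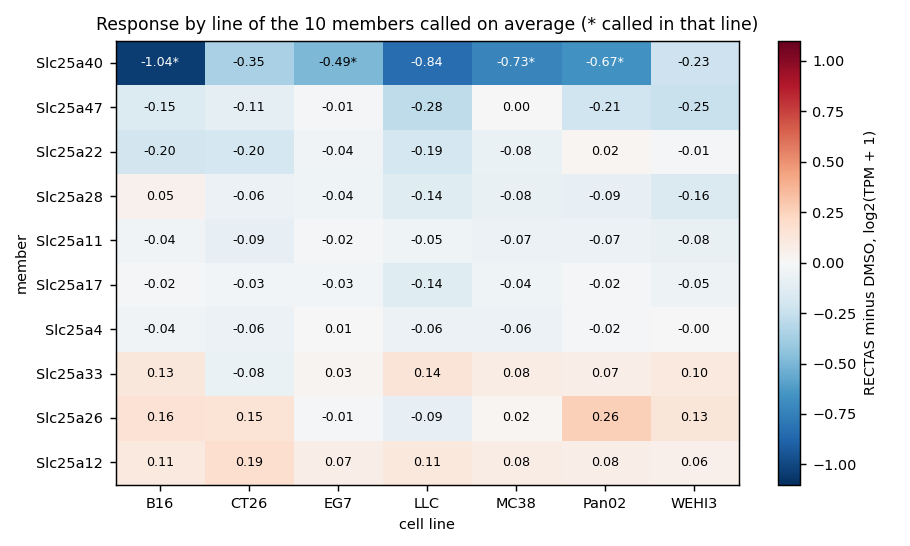
RECTAS minus DMSO on log2(TPM + 1) in each cell line (columns) for the 10 members called on average (rows); an asterisk marks a call within that line. Slc25a40 runs from -1.04 in B16 to -0.23 in WEHI3 and holds the 4 calls in single lines.

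The size of the Slc25a40 response differed between the lines. The F-test that the 7 differences were equal called it (F = 5.77, adjusted p = 0.023), and it was the only 1 of the 31 members called, against 3.07% of all 8775 genes. The next smallest adjusted p among members was 0.151, for Slc25a26. B16, with the highest DMSO level, had the largest difference. WEHI3 and Pan02, with the lowest levels, had differences of -0.23 and -0.67. Whether the difference goes with the DMSO level was not tested. The call was lost without the second DMSO library of B16 (adjusted p = 0.0572), the second RECTAS library of B16 (adjusted p = 0.0624) or the third RECTAS library of B16 (adjusted p = 0.0554). It was also lost without B16 as a whole (adjusted p = 0.235) and without WEHI3 (adjusted p = 0.111).

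Genes of related function were set beside the carriers. Of the 5 family members with other symbols, 2 were tested on average. Mtch1, an outer membrane protein, rose by 0.048 (SE 0.018, adjusted p = 0.0448, higher in 6 of 7 lines), and Mtch2 had a difference of -0.003 that was not called. Carriers reach the inner membrane through the TOM complex, the small TIM chaperones and the TIM22 complex. Of 16 genes of that import route, 1 rose and 3 fell, beside 9.86% and 15.9% of all genes. The chaperone Timm9 fell by 0.107 (adjusted p = 2.41e-05, lower in 6 of 7 lines), Timm10b by 0.104 (adjusted p = 0.00135, 5 of 7) and the TOM channel Tomm40 by 0.065 (adjusted p = 0.00247, 6 of 7). The chaperone Timm8a1 rose by 0.076 (adjusted p = 0.0177, higher in 6 of 7). The list had a median of 0.007.

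Of 21 other mitochondrial transporters and their partners, 16 were tested, 0 rose and 5 fell, beside 9.86% and 15.9% of all genes, with a median of -0.009. Sfxn2, a sideroflexin linked to iron and heme metabolism, fell by 0.44 with an SE of 0.028, from 7.034 to 4.787 TPM (adjusted p = 3.98e-14, lower in 7 of 7 lines). In MC38 it was 13.08, 12.21 and 12.01 TPM with DMSO and 8.5, 9.16 and 8.61 TPM with RECTAS. In CT26 it was 3.23, 2.99 and 2.71 TPM with DMSO and 2.91, 2.32 and 2.26 TPM with RECTAS, and only in CT26 did the groups overlap. The differences of Sfxn2 also varied between lines (F-test, adjusted p = 0.0134). Mcu, the pore of the calcium uniporter, fell by 0.169 (adjusted p = 8.52e-07, lower in 7 of 7), Mpc1, a subunit of the pyruvate carrier, by 0.067 (adjusted p = 0.00217, 6 of 7) and Abcb6 by 0.064 (adjusted p = 0.0218, 7 of 7).

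Of 29 genes of glutathione, iron-sulfur and heme metabolism, all tested, 5 rose and 7 fell, beside 9.86% and 15.9% of all genes, with a median of 0.007. Gclc, the catalytic subunit of the enzyme that starts glutathione synthesis, rose by 0.141 (adjusted p = 7.88e-07), and Iscu, the scaffold on which iron-sulfur clusters are built, by 0.145 (adjusted p = 2.79e-07), each higher in 7 of 7 lines. Fech, the enzyme that inserts iron to complete heme, fell by 0.136 (adjusted p = 3.38e-06), lower in 7 of 7 lines. The counts of these lists were not tested against other genes.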

How the data were processed

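Polyadenylated RNA was sequenced in 42 libraries. Per the labels' protocols, RNA was extracted with a column kit and a TruSeq stranded mRNA kit served for library construction. HISAT2 2.2.0, RSEM 1.3.0 and GRCm38 are listed, per the submitters' processing notes, with no role stated. Neither the annotation release nor the strand setting is given in the sources used here. The authors deposited TPM per gene, 1 table per library. Without counts, the depth of a library is unknown and no counting interval was computed.

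Gene IDs were looked up in GENCODE M21 (55141 of 55401 matched). Differences on log2(TPM + 1) were tested with limma 3.58.1 in R 4.3.3 (moderated, intensity trend, two-sided), with Benjamini-Hochberg adjustment over all genes tested and calls at adjusted p under 0.05. The 42 libraries were fitted together as 14 group means, keeping genes whose mean reached 1 TPM in each line. This fit yielded the average of the within-line differences over 7 lines and a test of their equality (F, 6 degrees of freedom). Lines were also fitted singly, keeping genes whose mean reached 1 TPM there, and DMSO levels were compared over the 21 DMSO libraries, with pairwise contrasts. The scripts were tested on simulated data with noise drawn independently for each gene and library. Variation shared between genes was not simulated. On the log2(TPM + 1) scale differences of low genes are understated.

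The members, lists and naming rule were chosen with earlier results of these data known. The rule named Slc25a39 and Slc25a40, every member called, the 12 highest mean DMSO levels, the 10 widest ranges between lines, and in each other list the 4 called genes with the smallest p, of which 1 gene is not reported here. Dbf4, Slc25a37, the members absent from lines and the pseudogenes were named after their values were seen. Fdx1l, on the last list, was not used here. Alternatives changed the pseudocount (0.1), the filter (none, or 5 TPM), the trend, the scaling, the block and the libraries or lines used, or took the main axis of residual variation as a covariate. Of the 47 members, 23 overlap another gene, 14 of them in exons, and are uncertain because read sharing is unknown. Figures were drawn with matplotlib 3.10.9.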

Additional observations from a re-analysis of the deposited data

Results flagged for a closer look

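The RECTAS response of Slc25a40 differed between the lines by a test of the difference itself (limma F-test over the 7 within-line differences, adjusted p = 0.023). The log2 differences were -1.04 in B16, -0.84 in LLC, -0.73 in MC38, -0.67 in Pan02, -0.49 in EG7, -0.35 in CT26 and -0.23 in WEHI3. Leaving out B16, WEHI3 or any of 3 libraries of B16 ended the call.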

How the results depend on the processing

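Of 1046 recomputed values, 56 crossed their threshold or, for counts of members, moved by more than 1.5 times. No called value changed sign; the uncalled average difference of Slc25a39 did in 4, down to -0.002. The fall of Slc25a40 on average was called under every alternative that could test it, from -0.70 to -0.61, and from -0.69 to -0.55 without 1 library or line. At a mean of at least 5 TPM, Slc25a40 and Slc25a47 were not tested. Of members called on average, 3 rose and 7 fell; with the main axis of variation as a covariate 5 rose, with median-ratio scaling 4 fell, and without 1 library or line 2 to 5 rose (5 without the third RECTAS library of EG7 or the second DMSO library of LLC) and 5 to 8 fell. The number of members whose response differed between lines, 1, was 0 at 5 TPM, where Slc25a40 was not tested. It was 8 with the main axis, 0 without B16, 4 without LLC and 0 without WEHI3. Without 1 library it was 0 to 3 (3 without the second DMSO library of LLC). In single lines the main axis gave 2 calls in B16 (Slc25a37 added), 1 in CT26 (Slc25a5) and 1 in LLC (Slc25a40, adjusted p = 0.0157). Without 1 library there were 1 to 2 calls in B16, 0 to 1 in CT26, 0 to 1 in MC38 and 0 to 0 in Pan02. Pan02 had 0 calls with no filter, and 0 at 5 TPM, where Slc25a40 was not tested in that line. The adjusted p of the Slc25a40 F-test was 0.000154 to 0.0325 under the other settings. Members whose DMSO level differed numbered 32 to 45, as the filter changed how many were tested, and 40 to 41 without 1 library. Apart from genes that the filter left untested, the cause of these changes was not tested. Same-numbered libraries were not treated as paired, because every pair of a line correlated over 0.1 in 0 of 7 lines. Their deviations correlated at -0.122 to 0.286, and 7 of 21 libraries correlated best with their own number. LLC came closest to that rule, at 0.093, 0.286 and 0.151, and whether its libraries were paired is not known. The replicate block gave 0 calls in MC38 and 0 in Pan02 in place of 1 each, and 4 rises and 7 falls on average. Unknown depth limits what can be said of members near 0.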

Other observations

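Ucp2, an uncoupling protein of the same family with another symbol, was found in some lines only. It was at 764.15, 773.65 and 742.56 TPM in the DMSO libraries of WEHI3, at 198.45, 212.56 and 203.07 TPM in EG7 and at 110.39, 110.09 and 123.08 TPM in CT26. Pan02 held 1.99 to 2.23 TPM, and B16, LLC and MC38 held at most 0.51 TPM. WEHI3, EG7 and CT26 thus lay apart from the other 4 lines without overlap, and Ucp1 was listed at 0.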
